A study of Homo sapiens with 12 samples.

Results

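The genes described here encode the proteins of the cytosolic ribosome. They were taken by name, as RPL or RPS followed by a number and at most an A, L or X, together with RPSA, RPLP0, RPLP1 and RPLP2. The rule found 83 of the 56537 gene names in the table, and 79 of them (of 15758) had a transcript with an FPKM above 0.5 in at least 3 libraries. FPKM is the number of sequenced fragments per transcript, divided by its length in kilobases and scaled to the mapped fragments of the library. These 79 members hold 684 transcripts past the filter, of 1146 in all. Of the members, 33 are proteins of the small subunit (RPS) and 46 of the large subunit (RPL). The 4 names that did not pass were RPL3L, RPL10L, RPL39L and RPS10L, whose highest summed FPKM in any library was 0.117, 0.0446, 0.176 and 0.395.

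HCT116, an established human colorectal cancer cell line, was kept at 21% oxygen (0 h) or moved to 1% oxygen for 1, 2 or 24 h, with no other treatment and 3 replicates at each of the 4 time points. Poly(A) RNA was sequenced in 12 strand-specific libraries. Low oxygen began 24 h after plating. The sources do not say whether the 0 h and 24 h cells were harvested at the same time after plating, so time in culture and low oxygen cannot be told apart. All values come from 1 cell line in bulk, so a change in RNA per cell cannot be told apart from a change in the make-up of the culture.

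A ribosome is built from a small and a large subunit, each made of ribosomal RNA with many proteins bound to it. In mammals nearly all mRNAs for these proteins begin with a C followed by a run of pyrimidines, the 5′ terminal oligopyrimidine (TOP) motif, which places their translation under mTORC1 and the RNA-binding protein LARP1. Low oxygen is known to restrain mTORC1, in part through the induction of DDIT4. Several ribosomal proteins also limit their own synthesis by steering the splicing of their pre-mRNA towards forms that are degraded or that keep an intron.

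Every gene on a list of 6 known hypoxia targets rose at 24 h. DDIT4 itself was listed at 11.6, 14.6 and 20.6 FPKM at 0 h and at 801, 863 and 751 at 24 h. Of 6 epithelial markers, KRT8, KRT18 and EPCAM had mean FPKM of 987, 603 and 280 at 0 h, CDX2 and CDH1 were low, and VIL1 did not pass the filter. At 24 h CDH1 was called higher, from 6.93 ± 1.06 to 23.6 ± 2.55 FPKM, and CDX2 lower, from 7.87 ± 1.00 to 5.74 ± 0.41 (SD, n = 3). Of 5 markers of other cell types PTPRC, COL1A2 and PECAM1 did not pass, DES was not called, and COL1A1 was called higher, with a mean of 1.63 FPKM at 0 h and 5.56 at 24 h. The part of such cells, or of a change in the epithelial cells, in the results was not tested. Summed FPKM per library ran from 1534760 to 5258190, and transcripts under 300 bases carried 57.0% to 87.6% of it. Read counts were not analysed here and an FPKM value does not carry its count, so precision rests on the spread between replicates.

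Ribosomal protein mRNAs were among the most abundant in the cells. Mean FPKM at 0 h ran from 11.5 for RPS28 to 2067 for RPS2, with a median of 826, and 59 of the 79 members were above 500. Over transcripts of at least 300 bases the highest were RPL38, RPLP2, RPL8, RPLP1 and RPS24. RPL38 had 1809 ± 151 FPKM and RPLP2, an acidic protein of the stalk that recruits translation factors, had 1732 ± 160 (SD, n = 3). RPL8 had 1723 ± 68.5, RPLP1, the partner of RPLP2, had 1672 ± 256, and RPS24 had 1630 ± 28.9 (SD, n = 3). The SD of RPLP1 spans the gaps between these neighbours, and their order was not tested. Across members the median SD was 5.45% of the mean at 0 h and 16.0% at 24 h.

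Several names at the low end of this order share sequence with other names, though RPS27L, at 97.9 FPKM, had 0% by both measures that follow. Of the 79 members, 63 had at least 1 pseudogene name past the filter, and in 14 the pseudogenes carried over 50% of the FPKM of gene and pseudogenes together at 0 h. That share was 98.6% for RPL9, 97.9% for RPL21, 90.0% for RPS26 and 81.0% for RPL13A. Of the stretches of 100 bases in the most abundant RPL7 transcript, 91.4% occur unchanged in transcripts of other gene names, and the figure was 75.4% for RPL21, 52.7% for RPS26, 42.6% for RPL9 and 31.1% for RPS28. A low FPKM of such a gene is therefore uncertain. In total 211 pseudogene names past the filter, of 800 in the table, were listed with 33646 to 57499 FPKM per library, beside 67629 to 106487 for the members.

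The first question was whether ribosomal protein mRNAs responded in the first hours. Summed over the members, FPKM was 73665, 70031 and 67629 at 0 h, 70863, 75255 and 77702 at 1 h, and 75570, 76924 and 76477 at 2 h. The 2 h libraries lay above those of 0 h and the 1 h libraries overlapped them. The ratio to 0 h was 1.06 at 1 h (two-sided exact permutation test, p = 0.2) and 1.08 at 2 h (p = 0.1 in the same exact test, the smallest that 3 against 3 libraries can give). As a share of all FPKM the direction was the opposite, with 3.12% to 4.56% at 0 h, 1.83% to 3.28% at 1 h and 1.60% to 2.90% at 2 h, ratios of 0.694 (p = 0.2) and 0.522 (p = 0.1, the same exact test). No member passed limma's test at 1 h, when 0.00635% of all gene names were called higher and 0% lower. No member reached an unadjusted p under 0.05 at 1 h, beside 1.97% of all names higher and 2.34% lower. None passed at 2 h (0.19% of gene names higher, 0.0762% lower).

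At 2 h 3 members (3.8%) had an unadjusted p under 0.05, all of them higher, below the 7.3% of all names that were higher at that threshold. RPS29, a small zinc-binding protein of the small subunit, was listed at 1459, 1331 and 1412 FPKM at 0 h and at 1889, 1678 and 1863 at 2 h. Its libraries did not overlap, with a log2 fold change of 0.37 ± 0.12 (SE; limma, adjusted p = 0.194). RPS15A had 0.37 (adjusted p = 0.235) and RPL22 had 0.25 (adjusted p = 0.264). With the libraries rescaled to the same sum (TPM), 13 members (16.5%) were called lower at 2 h and 0 higher, where 53.1% of all names were called lower and 0.286% higher.

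At 24 h the mRNAs of both subunits were higher on the deposited scale, and this direction flipped under TPM. The summed FPKM was 100036, 106487 and 78289, against 67629 to 73665 at 0 h. Replicate 3 was the lowest 24 h library for 78 of the 79 members. The ratio of means was 1.35 (exact permutation test, p = 0.1, the smallest possible). Of the FPKM on transcripts of at least 300 bases, the members took 10.0%, 10.3% and 10.2% at 0 h and 13.0%, 13.8% and 11.7% at 24 h. Of all FPKM they took 4.05%, 4.56% and 3.12% at 0 h and 4.66%, 3.22% and 1.49% at 24 h, so that these groups overlapped.

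**Figure D1:**
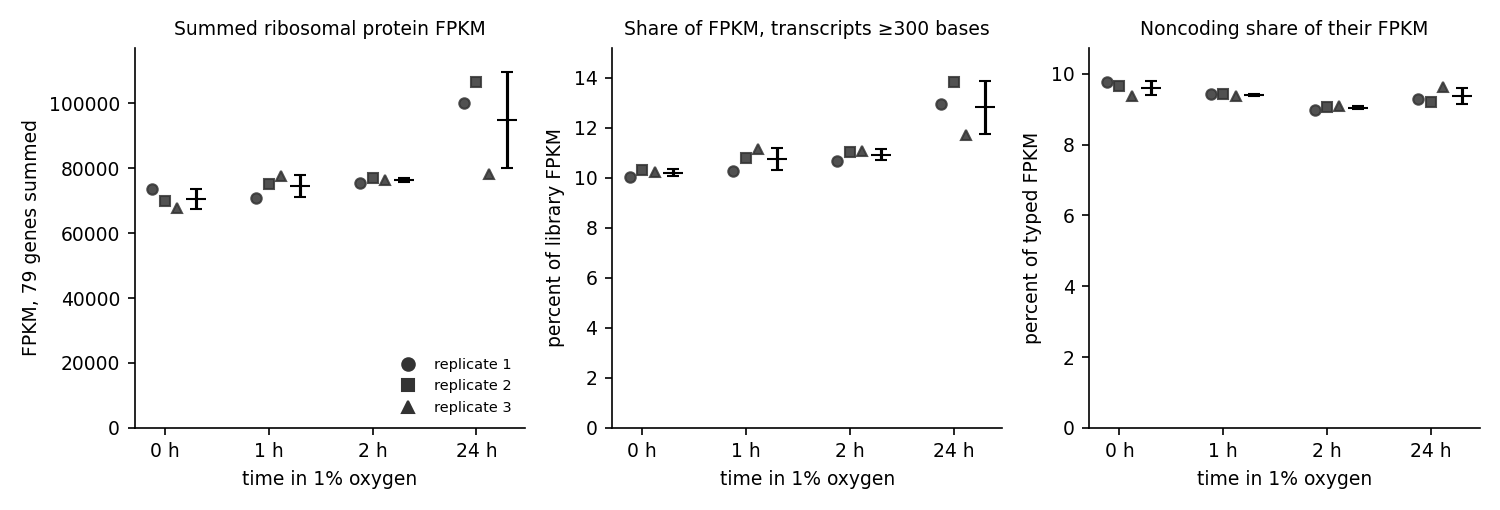
Each point is a library, by time in 1% oxygen, and the bar beside each group is mean ± SD (n = 3). The panels give the summed FPKM of the 79 genes, their percent of the FPKM on transcripts of at least 300 bases, and the noncoding percent of their typed FPKM. In the first panel 24 h replicates 1 and 2 stand at 100036 and 106487 and replicate 3 at 78289. The noncoding percent ran from 8.98 to 9.76, with the 2 h libraries lowest. As a share of all FPKM, not drawn, the 24 h mean was below that of 0 h.

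By gene, 47 of 79 members were called higher at 24 h and 1 lower (limma on log2(FPKM + 0.5), adjusted p under 0.05), where 22.9% of all 15758 names were called higher and 31.2% lower. The median log2 fold change was 0.37 over the members and -0.09 over all names. With median-of-ratios scaling the split was 60 higher and 0 lower (26.8% and 26.8% of names), with medians of 0.49 and 0.01. With TPM it was 0 higher and 2 lower (3.31% and 42.6% of names), with medians of -0.50 and -0.71. With TPM computed on the transcripts of 300 bases or more it was 46 and 2 (19.1% and 34.6%). The members' median exceeded that of all names by 0.47, 0.48, 0.21 and 0.46 under the 4 scalings in this order. Without 24 h replicate 3, 67 members were called higher, and without any other library of the contrast 34 to 43. The shares of all names called in these fits are not given here.

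For 38 members every 24 h library lay above every 0 h library, and for 0 the reverse held (25.4% and 34% of all names). At the thresholds of the original gene-level test (adjusted p under 0.01 and a log2 fold change beyond 1) 1 member was called higher and 0 lower, where 8.34% of names were called higher and 10.5% lower. The typical change was thus modest, and below the doubling that rule asks for.

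**Figure D2:**
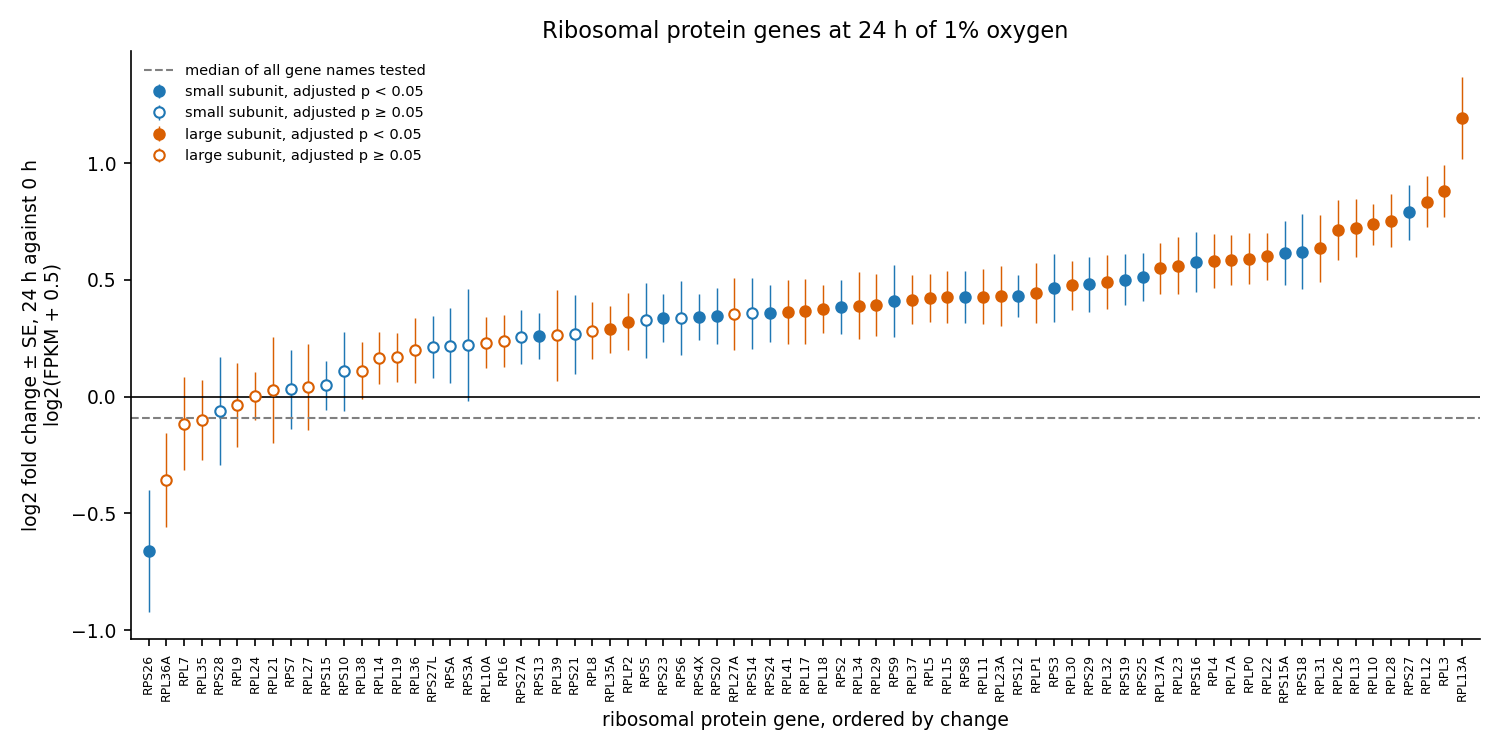
Log2 fold change at 24 h against 0 h (± SE, log2(FPKM + 0.5)) of 75 of the 79 members in rank order, by subunit, with filled points for an adjusted p under 0.05. The dashed line is the median of all gene names, -0.09. The filled points run from 0.26 to 1.19, apart from RPS26 at -0.66. With TPM the median of the members moved to -0.50.

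Adding each gene's pseudogene names to it left most changes at 24 h in place on the deposited scale. Of the members, 45 were called higher at 24 h both alone and with their pseudogenes. In the sums with pseudogenes 23.1% of all 15546 names were called higher and 31.7% lower. RPL21, a large-subunit protein, had a log2 fold change of 0.03 alone and 0.37 with its pseudogenes (limma, adjusted p = 0.0395). RPL9, another, had -0.04 alone and 0.31 with them (adjusted p = 0.19).

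**Figure D3:**
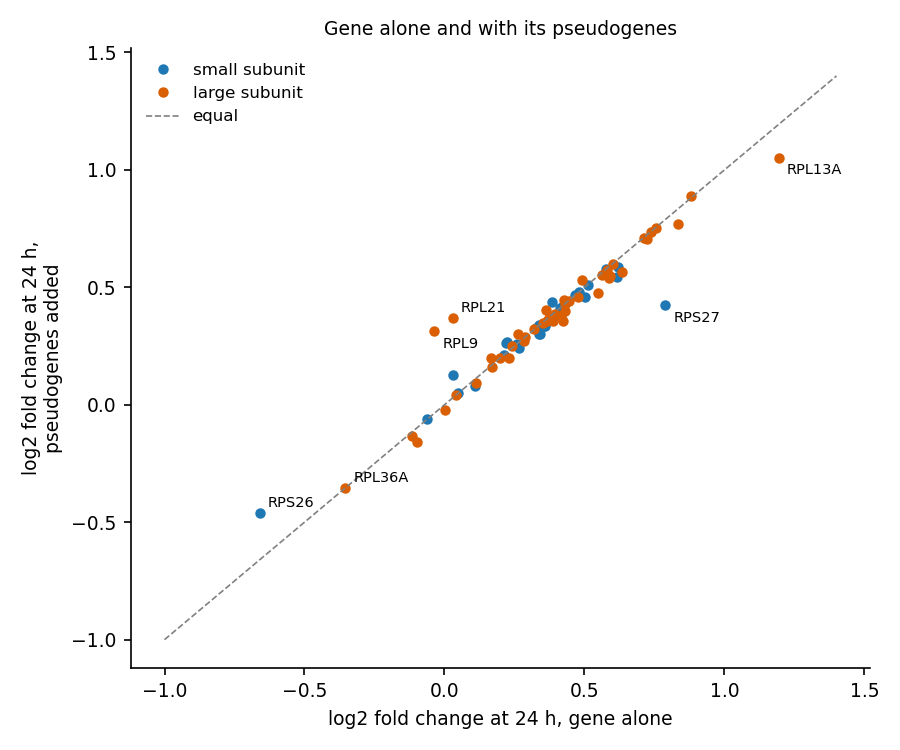
Log2 fold change at 24 h of each member alone (x axis) and with its pseudogenes added (y axis), for 75 genes by subunit, with a dashed line of equality. Most points lie near the line, with RPL9 and RPL21 above it and RPS27 below.

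The large subunit held the genes with the largest called rises. RPL13A, which is also known as a component of the GAIT complex that silences inflammatory mRNAs, was listed at 318, 338 and 335 FPKM at 0 h and 845, 887 and 574 at 24 h. Each 24 h library exceeded each at 0 h, and the log2 fold change was 1.19 ± 0.17 (SE; limma, adjusted p = 0.000111). Under TPM it was 0.32 and no longer called. With its 5 pseudogene names added the log2 fold change was 1.05.

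RPL3, a core protein close to the peptidyl transferase centre, was listed at 1089, 1060 and 1087 FPKM at 0 h and 2004, 2161 and 1810 at 24 h. These groups were far apart, with a log2 fold change of 0.88 ± 0.11 (SE; adjusted p = 3.77e-05). RPL12, a protein of the stalk base, was listed at 516, 527 and 550 FPKM at 0 h and 928, 1042 and 881 at 24 h. Its log2 fold change was 0.84 ± 0.11 (SE).

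Both proteins, with RPS13, are known to act on the splicing of their own transcripts. All 3 of this group were called higher at 24 h on the deposited scale. RPS13 moved least, from 826 ± 41.5 to 993 ± 116 FPKM (SD, n = 3), a log2 fold change of 0.26 (limma, adjusted p = 0.0426), which missed the threshold in 8 of 16 alternatives. Under TPM RPL3 was at 0.01, RPL12 at -0.038 and RPS13 at -0.61, none of them called.

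RPL28, RPL10, RPL13, RPL26 and RPL31 completed the large-subunit genes among the 10 largest rises, with log2 fold changes of 0.75, 0.74, 0.72, 0.71 and 0.64. RPL10, which is added late in assembly and is needed for subunits to join, was listed at 424, 425 and 404 FPKM at 0 h and 695, 766 and 634 at 24 h. RPL26, known to bind the p53 mRNA, was listed at 1435, 1399 and 1312 at 0 h and 2393, 2672 and 1819 at 24 h. In neither gene did the groups overlap. Under TPM all 5 had values between -0.24 and -0.12, none called.

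RPS27, a zinc-finger protein of the small subunit, was also in this set. It was listed at 41.6, 37.2 and 32.6 FPKM at 0 h and 66.5, 69.0 and 57.7 at 24 h, a log2 fold change of 0.79 ± 0.12 (SE; limma, adjusted p = 0.000142). Its pseudogenes carried 57.0% of the joint FPKM at 0 h, and with them the log2 fold change was 0.43. Under TPM it was -0.073 and not called.

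By subunit, 18 of 33 small-subunit and 29 of 46 large-subunit members were called higher, against 22.9% of all names, with medians of 0.35 and 0.40 on the log2 scale. Of the 11 listed members that are mutated in Diamond-Blackfan anaemia, 7 were called higher and 1 lower, and the 63.6% higher lay near the 59.5% of all members. They include RPL5 and RPL11, which bind MDM2 when ribosome assembly is disturbed, with log2 fold changes of 0.42 and 0.43. None of the 47 rises was called under TPM.

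RPS26 was the only member called lower. This small-subunit protein sits at the mRNA exit channel. It was listed at 163, 168 and 118 FPKM at 0 h, at 105, 130 and 84.4 at 2 h, and at 120, 121 and 55.6 at 24 h. The groups overlapped, and the log2 fold change of -0.66 ± 0.26 (SE) was called at an adjusted p of 0.0497 (limma). It was called in 9 of 16 alternatives. Without 24 h replicate 3 it was -0.29 and not called, and the call was also lost without 0 h replicate 1 (-0.59), without 0 h replicate 2 (-0.57), with median-of-ratios scaling (-0.55), a pseudocount of 0.1, class = transcripts alone or the 6 libraries of the contrast alone. With its pseudogenes, which carried 90.0% of the joint FPKM, it was -0.46 (adjusted p = 0.0471). RPL36A, with 67.5, 52.1 and 40.7 FPKM at 0 h and 48.9, 44.0 and 31.5 at 24 h, had -0.36 and was called only under 4 of 16 alternatives, TPM among them.

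The paralogs gave few values. RPS27L, a p53-responsive relative of RPS27, was listed at 105, 86.3 and 103 FPKM at 0 h and 121, 130 and 92.0 at 24 h. The groups overlapped (log2 fold change 0.21, adjusted p = 0.195). RPL39, a small protein at the exit tunnel and the parent of RPL39L, was listed at 307, 313 and 249 FPKM at 0 h and 403, 435 and 236 at 24 h, also with overlap, and had a log2 fold change of 0.26 (adjusted p = 0.279).

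The change from 2 h to 24 h was tested directly. Here 32 of 79 members were called higher and 0 lower by limma (20.8% and 28.1% of all names). RPL28 had a log2 fold change of 0.78, RPL3 of 0.73 and RPL13A of 1.03 between these times. RPS29 had 0.11 (limma, adjusted p = 0.451) between 2 h and 24 h, and its 3 libraries at 24 h, 1932, 2206 and 1751 FPKM, overlapped those at 2 h.

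Other groups of the same machinery gave other counts at 24 h, to be read against the 22.9% higher and 31.2% lower of all names. Of 20 other mRNAs with a TOP motif, 12 were called higher and 2 lower, with a median of 0.40 that turned to -0.47 under TPM. EEF2, the elongation factor of translocation, was listed at 754, 782 and 753 FPKM at 0 h and 1530, 1411 and 1574 at 24 h. NPM1, a nucleolar chaperone of ribosome assembly, was listed at 2307, 2195 and 2118 at 0 h and 1366, 1735 and 1543 at 24 h. Of 6 ribosomal protein genes whose names the rule does not cover (among them FAU, RPL22L1, RPL26L1, RPL7L1 and RPL36AL), 0 were called higher and 3 lower. Of 12 genes of the mTORC1 and LARP1 pathway, 2 were called higher and 4 lower (16.7% and 33.3%), near the shares of all names. Among them MTOR fell from 13.5 ± 1.37 to 7.63 ± 0.64 FPKM and LARP1 from 49.0 ± 1.56 to 35.8 ± 4.59 (SD, n = 3).

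Of the mRNAs for proteins of the mitochondrial ribosome, 0 of 73 were called higher and 59 lower, with a median of -0.85 on the log2 scale. Under TPM their median was -1.68, and that of the cytosolic ribosomal protein genes was then also below 0, at -0.50. Among 440 other genes with a mean above 200 FPKM, 112 were called higher and 194 lower, with a median of -0.15. These medians stand beside the -0.09 of all names and the 0.37 of the cytosolic ribosomal protein genes. No test was made between the lists.

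The members varied together across libraries. The Pearson correlation of a member with the mean of the others on the log2 scale had a median of 0.883 over the 12 libraries, with 31 members above 0.9 and 9 below 0.5. The lowest were RPL36A (-0.09), RPS26 (-0.03) and RPL24 (0.16). Outside the members, the names whose profile was most like their mean were RPL41P1 (0.984), RP11-475C16.1 (0.982), NDUFS4 (0.977), RP11-20O24.4 (0.970) and RPL21P75 (0.955). The points share libraries and their scaling, and genes are not independent replicates.

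The start-site sequences below are of genes at both ends of the order of change and of those with long pyrimidine runs. They run from 10 bases before to 20 bases from the annotated start (the base in position 11) and are from RefSeq on GRCh38.p14, not the build of the files. Capitals mark the longest run of C and T that overlaps the 11 bases around the start, where it has at least 5 bases. RPL13A, RPL3 and RPL12 are the 3 largest called rises, RPL39 and RPL7A have the longest runs, and RPS26 and RPL36A are the lowest values.
RPL13A (chr19:49487598-49487627, plus strand): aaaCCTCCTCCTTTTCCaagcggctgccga
RPL3 (chr22:39319604-39319633, minus strand): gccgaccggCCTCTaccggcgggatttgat
RPL12 (chr9:127451387-127451416, minus strand): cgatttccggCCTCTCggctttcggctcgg
RPL7A (chr9:133348208-133348237, plus strand): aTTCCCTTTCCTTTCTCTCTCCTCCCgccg
RPL39 (chrX:119791611-119791640, minus strand): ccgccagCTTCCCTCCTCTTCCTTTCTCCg
RPL36A (chrX:101391001-101391030, plus strand): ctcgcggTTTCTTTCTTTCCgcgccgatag
RPS26 (chr12:56041908-56041937, plus strand): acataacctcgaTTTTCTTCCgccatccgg

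A window was found for 63 of the 79 members. A C at the annotated start followed by at least 4 bases that are each C or T, read on the strand of the gene alone, was present in 42 of them (66.7%) and in 4.07% of all 35116 promoters. Of the sequences printed, those of RPL3 and RPS26 do not meet it. A run of at least 5 such bases near the start was present in 56 (88.9%) and in 35.7% of all promoters. Members called higher at 24 h had such a run in 34 of 37 windows, and their longest runs had a median of 11 bases. The other members had it in 22 of 26, with a median of 10. RPL36A, with 13 pyrimidines, and RPL7A, with 25, lay far apart in their change (log2 fold change -0.36 and 0.59).

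The second question was whether the members' noncoding and short transcripts moved with their mRNAs. Of the 684 transcripts 396 were coding, 176 had a retained intron, 43 were targets of nonsense-mediated decay (NMD), 47 were processed transcripts with no defined reading frame, 2 were of other noncoding types and 20 had no type. At 24 h 112 transcripts were called higher and 116 lower, where 11.3% of all 62162 transcripts were called higher and 15.3% lower. None was called at 1 h or 2 h (of all transcripts 0.00161% higher and 0.00322% lower at 1 h, and 0.00322% and 0% at 2 h), when 29 and 39 were higher and 23 and 50 lower at an unadjusted p under 0.05. These are 4.24% and 5.7% higher and 3.36% and 7.31% lower, beside 2.43% and 4.66%, and 2.64% and 4.55%, of all transcripts.

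Coding transcripts were called higher in 85 and lower in 65 of 396 cases (11.9% and 17.7% of coding transcripts of all genes). With median-of-ratios scaling the counts were 107 and 61 (13.8% and 15.1%), and with TPM they turned to 6 and 88 (2.84% and 26.2%).

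NMD transcripts were called higher in 5 and lower in 3 of 43 (7.54% and 13.7%). With median-of-ratios scaling they were 11 and 2 (8.78% and 12%), and with TPM 0 and 5 (2.19% and 22.9%). Processed transcripts were called higher in 3 and lower in 13 of 47 (8.48% and 11.2%). Under these scalings they were 4 and 12 (9.67% and 9.85%), and 0 and 21 (2.59% and 18.9%).

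Retained-intron transcripts were called higher in 15 and lower in 31 of 176, with a median log2 fold change of -0.41. Over all genes 14.6% of such transcripts were called higher and 7.41% lower, with a median of 0.12. With TPM the members' counts were 0 and 76 (3.86% and 15.3% of such transcripts), and the median over all genes turned to -0.24. With median-of-ratios scaling they were 17 and 24 (16.2% and 6.25%).

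**Figure D4:**
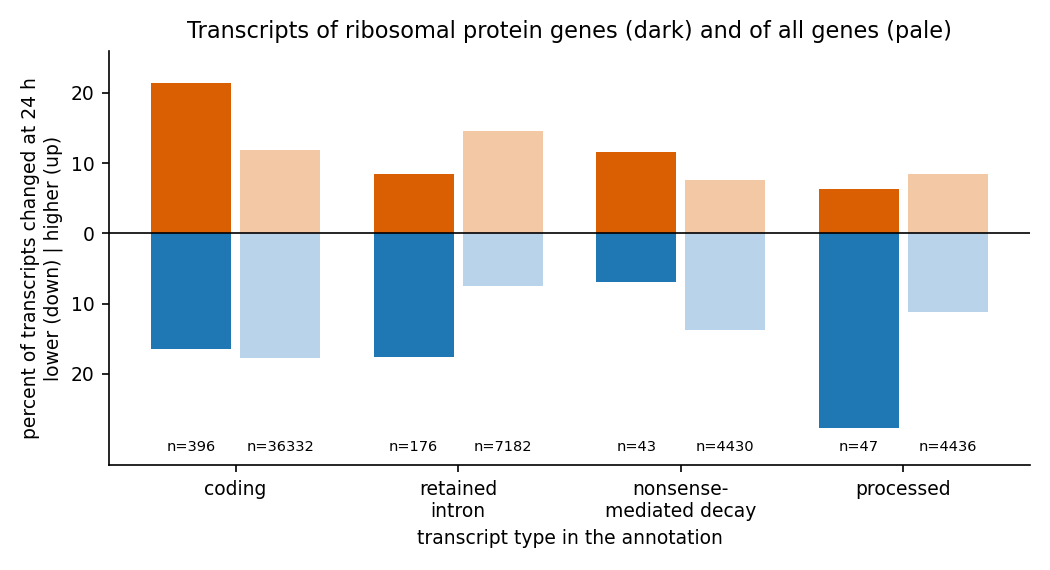
Percent of transcripts called higher (up) and lower (down) at 24 h by annotated type, for transcripts of the 79 members (dark) and of all genes (pale), with the number tested under each bar. Retained-intron transcripts of the members were more often called lower than higher (31 and 15 of 176), those of all genes more often higher (14.6% and 7.41%); with TPM the members had 0 higher and 76 lower.

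Weighed by abundance, the noncoding part at 24 h overlapped that at 0 h and was lower at 2 h. Noncoding transcripts carried 9.76%, 9.67% and 9.38% of the members' typed FPKM at 0 h and 9.29%, 9.20% and 9.63% at 24 h (exact permutation test, p = 0.2). At 2 h they carried 8.98% to 9.08%, below every 0 h library (exact permutation test, p = 0.1, the smallest possible). Retained-intron transcripts alone carried 4.37% ± 0.09 at 0 h and 4.40% ± 0.24 at 24 h (SD, n = 3). At 2 h they carried 4.20% to 4.24%, also below the 4.30% to 4.46% of 0 h (exact permutation test, p = 0.1). Their summed FPKM had a mean of 2908 at 0 h and 3920 at 24 h, a ratio of 1.35 beside the 1.35 of the coding transcripts. The most abundant of them at 0 h was an RPS23 form (ENST00000504293), listed at 530, 493 and 468 FPKM at 0 h and 592, 671 and 533 at 24 h. The RPL13 form ENST00000565571 was called higher, from 403, 435 and 441 to 861, 873 and 769, and exceeded the RPS23 form at 24 h. Of the 31 that were called lower, 24 had a mean under 10 FPKM at 0 h, and their median was 4.92. The 130 that were not called were scarcer still (118 under 10 FPKM, median 1.68), and of the 15 called higher 8 were under 10 FPKM (median 9.84).

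RPL6, a large-subunit protein, lost a transcript from the listing. Its retained-intron form ENST00000552455 was listed at 81.3, 16.0 and 47.8 FPKM at 0 h, at 61.7, 36.1 and 34.3 at 2 h and at 0 in all 3 libraries at 24 h. A listed 0 can be a failed estimate, and no fold is given. The noncoding share of RPL6 went from 7.86% ± 3.46 to 1.69% ± 0.25 (SD, n = 3).

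RPS12, a small-subunit protein, has 2 transcripts. The coding ENST00000230050 was listed at 1145, 1042 and 1030 FPKM at 0 h and 1456, 1389 and 1312 at 24 h. The retained-intron ENST00000484616 was listed at 54.2, 56.4 and 41.0 at 0 h and 130, 149 and 109 at 24 h. Both groups were apart, with log2 fold changes of 0.37 and 1.35, and the share of the retained form went from 4.50% ± 0.65 to 8.50% ± 1.04 (SD, n = 3; limma, adjusted p = 0.0179).

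RPL3 moved in the opposite sense. Its main coding transcript ENST00000216146 was listed at 589, 611 and 700 FPKM at 0 h and 1303, 1407 and 1286 at 24 h. The NMD form ENST00000420536 was listed at 22.4, 24.6 and 22.4 at 0 h and 12.3, 17.2 and 8.18 at 24 h. The noncoding share of RPL3 fell from 4.06% to 1.12%, a change of -2.94 ± 0.68 points (SE; limma, adjusted p = 0.028).

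**Figure D5:**
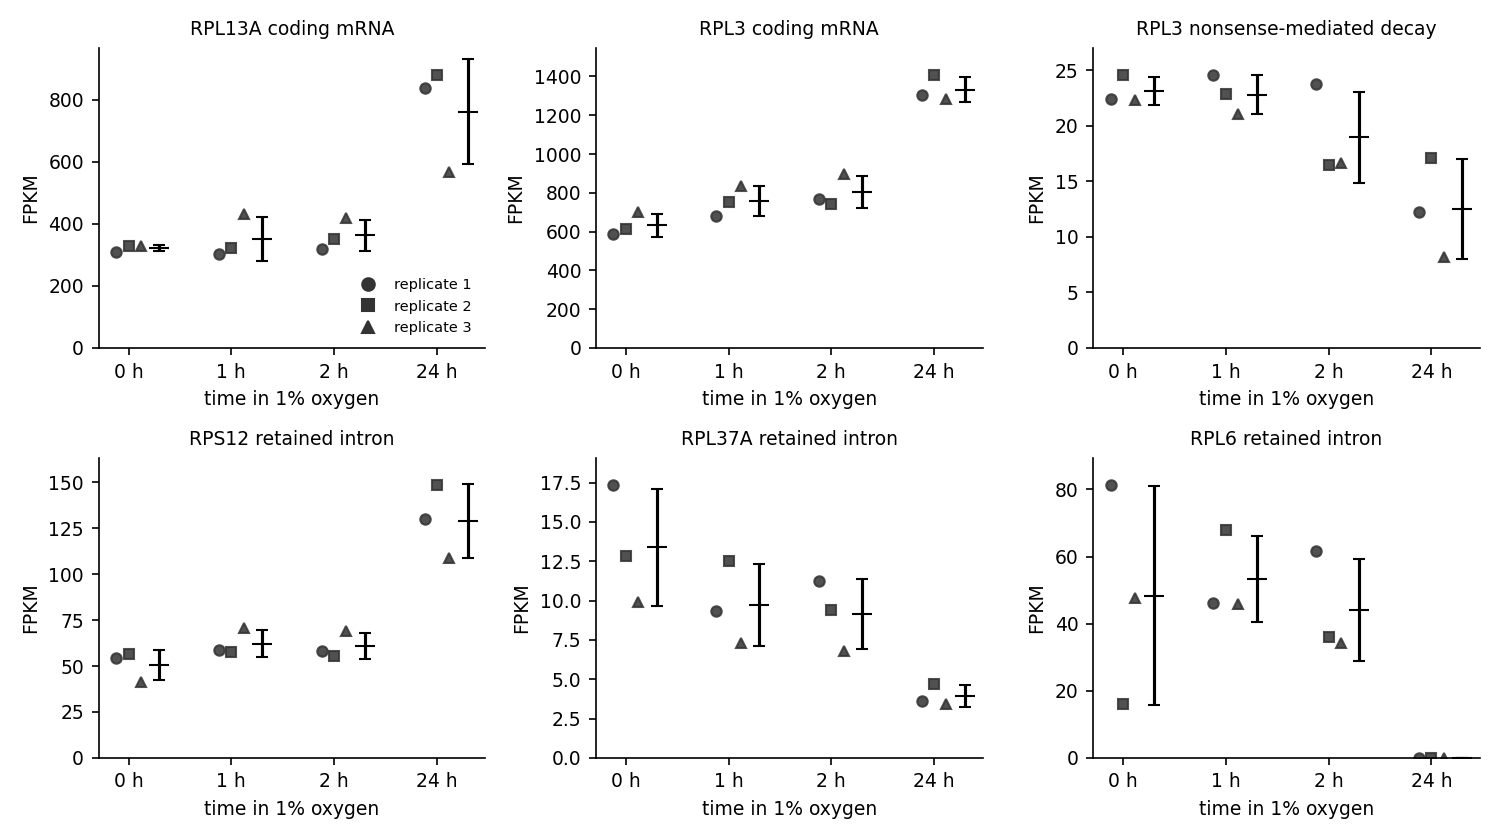
FPKM of 6 transcripts in each library by time in 1% oxygen, with mean ± SD (n = 3) beside each group. The coding mRNAs of RPL13A and RPL3 and the retained-intron form of RPS12 were higher at 24 h on the deposited scale. The NMD form of RPL3 and the retained-intron forms of RPL37A and RPL6 were lower, the last listed at 0 in all 3 libraries. Under TPM the RPL13A and RPL3 gene sums were at 0.32 and 0.01 on the log2 scale and not called.

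Across genes, 75 members entered the test of the noncoding share among 5969 genes. The median change at 24 h was -0.40 percentage points for the members and 0.68 for all genes. Of the members, 2 were called higher and 5 lower (7.14% and 2.45% of all genes). Changes were tested in percentage points with a spread partly shared among genes, so a small share could rarely be called. The members' median share at 0 h was 3.21%. RPS18 went from 1.49% ± 0.21 to 0.63% ± 0.06 (SD, n = 3) without overlap and was not called (SE 0.62 points, limma, adjusted p = 0.441). The shares called higher were those of RPS12 and RPL21. RPL21 went from 27.9% ± 5.36 to 63.6% ± 7.28 (SD, n = 3), with its NMD transcript ENST00000483765 at 10.4, 12.6 and 6.41 FPKM at 0 h and 41.2, 39.4 and 15.4 at 24 h. RPL21 is among the genes with most sequence in common with pseudogenes.

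The shares called lower included those of RPL10 (-7.30 points), RPL6 (-6.17), RPS24 (-3.87) and RPL3 (-2.94). Not all 5 are named here, so this is not a ranking of them. Leaving out a library of the contrast gave 2 to 4 lower and 1 to 3 higher, with 2 lower without 0 h replicate 1 or without 24 h replicate 2, and 3 without 0 h replicate 2, 24 h replicate 1 or 24 h replicate 3. In these fits 3.72% to 7.15% of all shares were called higher and 1.46% to 2.35% lower. With no filter on transcripts there were 3 higher and 9 lower, beside 3.53% and 1.20% of all 10444 shares in that fit. Among the shares named here, those of RPL10 and RPL21 were called in all 11 alternatives, and that of RPS12 in 8. RPS24 was called in 7, RPL3 in 5 (none of those that leave out a library) and RPL6 in 4. In RPL10 it went from 20.8% ± 0.41 to 13.5% ± 1.03 (SD, n = 3), with 0 of its 4 retained-intron forms called and its coding ENST00000436473 at 48.2, 76.3 and 71.2 FPKM at 0 h and 152, 203 and 140 at 24 h. At 1 h and 2 h limma called 0 of the 5969 shares, and 2 members (2.67%) were lower at an unadjusted p under 0.05 at each time, beside 3.69% and 4.71% of all shares.

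The other noncoding transcripts with large called changes were all low. A retained-intron form of RPL37A (ENST00000359681) had a log2 fold change of -1.62. A retained-intron form of RPS27 (ENST00000477151) rose from 2.98, 4.60 and 3.43 FPKM to 16.1, 13.5 and 13.4. Processed transcripts of RPL41 (ENST00000546485) and RPS23 (ENST00000503605) had log2 fold changes of -2.10 and -1.99. In RPL7A (ENST00000496554 and ENST00000468019) and RPS24 (ENST00000475468) the transcripts that were called lower had at most 2.74 FPKM in any 0 h library.

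Splice junctions of retained introns are given below for introns whose retained form fell (RPL37A, RPLP1) and for one whose most abundant retained form rose (RPS2). Each line holds the last 10 exonic and first 20 intronic bases, read 5′ to 3′ on the strand of the gene in GRCh37, with the GT of the donor in capitals.
RPL37A donor (chr2:217363591-217363620, plus strand): cggcgacatgGTgagtgtgggtctctgtgc
RPLP1 donor (chr15:69746051-69746080, plus strand): gtttgcaaagGTaaggtgatggtggcaaag
RPS2 donor (chr16:2012717-2012746, minus strand): cccttgcaagGTaggctggtggcaggtgat

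Each has the standard GT. The RPL37A intron printed, from the coding transcript ENST00000600880, is 392 bases long and follows the start codon, which ends the exon printed. The form that keeps it, ENST00000359681, was listed at 17.3, 12.8 and 9.93 FPKM at 0 h and 3.63, 4.71 and 3.45 at 24 h. This form also spans introns of 118 and 89 bases with other donors and the same acceptor. That of 118 bases belongs to ENST00000456586, the most abundant RPL37A transcript. The RPLP1 form (ENST00000487304, intron of 1448 bases) went from 8.43, 6.17 and 5.92 to 2.51, 2.41 and 2.72, a log2 fold change of -1.25. In neither did the groups overlap.

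The RPS2 intron is 79 bases long. The transcript ENST00000533161 that keeps it was listed at 46.1, 62.5 and 46.9 FPKM at 0 h and 72.7, 92.5 and 80.9 at 24 h, a log2 fold change of 0.66 (limma, adjusted p = 0.00404) that turned to -0.20 under TPM. A scarcer transcript that keeps the same intron and another of 83 bases, ENST00000526908, had 0.94 FPKM at 0 h and 0.11 at 24 h in the mean and was called lower. The other forms that keep the intron of 79 bases, ENST00000527871 and ENST00000534461, had means of 5.83 and 0.63 FPKM at 0 h and 3.76 and 0.38 at 24 h and were not called.

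Short transcripts, under 300 bases, numbered 6. The coding RPS29 transcript ENST00000245458, of 296 bases, carried 99.3% of the FPKM of its gene at 0 h. It was called higher at 24 h, with a log2 fold change of 0.47 (limma, adjusted p = 0.00627). Without the short transcripts RPS29 rested on the small remainder of its FPKM and had a log2 fold change of 1.58. The members as a whole then had 48 called higher and 1 lower (23.6% and 32.1% of names), and 2 higher and 0 lower past the stricter thresholds (8.69% and 10.7%).

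RPS2 had a transcript of 170 bases (ENST00000563194) that carried 24.2% of its FPKM at 0 h, with 521, 564 and 418 FPKM at 0 h and 531, 519 and 473 at 24 h. These overlapped, while the gene sum went from 2067 ± 128 to 2702 ± 245 FPKM (SD, n = 3). An RPL38 transcript of 169 bases (ENST00000528433) was listed at 9.73, 10.2 and 1.20 FPKM at 0 h and at 0 in all 3 libraries at 24 h, when its gene was at 1971 ± 284. The short transcripts of RPL27A, RPL30 and RPL41 had at most 8.17 FPKM in the libraries at 0 h and 24 h and were not called.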

How the data were processed

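The authors aligned the paired reads of 100 bases with MapSplice 2.1.4 to hg19, assembled transcripts per sample with Cufflinks 2.2.0, merged them and compared them with Ensembl 74. They deposited FPKM per transcript and library; scaling between libraries is not given in the sources used here. The deposited attribute table gave class code, nearest reference, gene name and length.

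FPKM was summed per gene name over transcripts of class = or j with FPKM above 0.5 in at least 3 libraries. limma 3.58.1 (R 4.3.3; lmFit, eBayes with trend) was fitted to log2(FPKM + 0.5) of all 12 libraries, with two-sided p-values and Benjamini-Hochberg adjustment over all 15758 names, or all 62162 transcripts. On this scale the change of low values is understated. Noncoding shares (percent) were fitted without trend. The count test of the authors could not be repeated on FPKM. Types came from GENCODE 44 lifted to GRCh37. Cufflinks divides reads among overlapping isoforms, so transcripts of a gene are not independent. Tables were made in Python 3.11.15 with pandas 2.3.3. The steps were tested on simulated data with changes added at 24 h to 200 features per test. For gene sums a log2 change of 1 was called in 81% of cases and one of 0.5 in 20%. For transcripts these were 26% and 1%. For shares a change of 15 points was called in 19% and one of 10 points in 9%. A feature that was not called may thus still have changed.

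Members and lists were chosen with earlier results of these data known. Genes were named by rank (the 5 most abundant, the 10 largest called changes each way, called shares and transcripts, paralogs, and names with a like profile). The retained introns of RPLP1 and RPS2, the pseudogene examples, RPL36A and genes named within lists were chosen after their values were seen. Alternatives covered pseudocount, filter, class, scaling, replicate block and left-out libraries, with pseudogene sums added after seeing the data. A few members are counted but not reported as single genes here.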

Additional observations from a re-analysis of the deposited data

Results flagged for a closer look

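The change at 24 h differed from that at 2 h, both against 0 h, for 32 of the 79 members by a direct limma test between the 24 h and 2 h libraries, all of them higher at 24 h, where 20.8% of all gene names were called higher. RPL28 (log2 fold change 0.78), RPL10 (0.59) and RPL3 (0.73) had the smallest adjusted p. At 2 h itself 0 members were called against 0 h and 3 had an unadjusted p under 0.05. No screen of single libraries was run in groups of 3, and 24 h replicate 3 was the lowest 24 h library for 78 of the 79 members.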

How the results depend on the processing

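The 47 rises at 24 h were lost under TPM, while median-of-ratios scaling gave 60 and TPM on the longer transcripts 46. With TPM there were 0 rises (0 also over transcripts of at least 300 bases) and 2 falls, the median log2 fold change of the members was -0.50, the ratio of summed FPKM was 0.799 and 13 members were called at 2 h. The number of falls was 0 with a pseudocount of 0.1, with class = alone, with median-of-ratios scaling and with the 6 libraries of the contrast alone. With those 6 libraries there were 32 rises, where 21.2% of all names were called higher and 28.2% lower. The number of falls was 2 with TPM computed on the longer transcripts (300 bases or more). Over transcripts of at least 300 bases alone it was likewise 0 with median-of-ratios scaling and with 6 libraries, and 2 under both TPM scalings. Same-numbered libraries of 0 h and 2 h, and of 1 h and 2 h, deviated together in every pair (correlations of 0.11 to 0.40). Those of 24 h had correlations of -0.07 to 0.24 with the other times. In replicate 3 these were 0.24 with 0 h, 0.14 with 2 h and 0.03 with 1 h, and in replicates 1 and 2 at most 0.09. These values do not settle whether the numbers pair the 24 h libraries. With the replicate block there were 48 rises and 2 falls, where 24.6% of all names were called higher and 33.4% lower. Over transcripts of at least 300 bases there were 52 and 2. Of the members' transcripts 237 were called with the block, and no member was called at 1 h or 2 h. The noncoding shares with the block had 3 called higher and 4 lower (6.38% and 2.55% of all shares), without RPL6 (limma, adjusted p = 0.0709). Leaving out a library in turn gave 34 to 67 rises and 0 to 2 falls (36 to 68 and 0 to 2 over transcripts of at least 300 bases), with the 67 and 68 reached without 24 h replicate 3. It gave 181 to 244 transcripts, medians of 0.30 to 0.53, ratios of 1.27 to 1.47, and a median noncoding change of -0.44 to -0.20 points, the last without 24 h replicate 1. It gave 0 members at 1 h and 2 h each time. With pseudogenes added there were 48 rises and 1 fall, and 45 members were called higher both ways. With TPM 76 of the 79 members had a log2 fold change below 0. Among genes named by rank TPM reversed RPL10 (-0.14), RPL12 (-0.038), RPL13 (-0.15), RPL26 (-0.16), RPL28 (-0.12), RPL31 (-0.24), RPL39 (-0.61), RPS27 (-0.073), RPS27L (-0.65) and RPS29 (-0.39). TPM divides by a sum of which transcripts under 300 bases carry 57.0% to 87.6%.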
